A study of Homo sapiens with 16 samples.

Results

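Aminoacyl-tRNA synthetases join each amino acid to its tRNA. The 36 genes described here encode 20 cytosolic enzymes or subunits and 16 mitochondrial enzymes, whose symbols end in 2, and were taken from the 20802 gene targets of the series by their symbols. All 36 were found, and 35 had enough reads to be tested. The exception was PARS2, the mitochondrial prolyl enzyme, which had 37 reads over all libraries.

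The study measured RNA in HEK293 cells, a human embryonic kidney cell line, whose interferon receptors were either of the genotype labelled wild-type or of one labelled optimized. The series names the geometry between the receptor-bound Janus kinases as what the optimized receptors alter. Both kinds of cell were studied without treatment or with 100 nM of IFNw (interferon omega, a type I interferon), of IFNL3 (interferon lambda 3, a type III interferon) or of H11, a variant of IFNL3 engineered to bind its receptors more tightly. Each of these 8 groups had 2 libraries, labelled as biological replicates, so there were 16 in all. The labels give an exposure of 15 minutes and a time of 24 hr without relating them, and do not say whether a cell line is 1 clone.

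As background, cells keep separate synthetase sets for translation in the cytosol and in mitochondria, almost all encoded in the nucleus by separate genes. GARS and KARS each serve both compartments, and 8 cytosolic enzymes, counting the fused glutamyl-prolyl enzyme EPRS, sit in a multisynthetase complex held together by AIMP1, AIMP2 and EEF1E1. Many cytosolic synthetase genes are targets of ATF4, the transcription factor of the amino-acid response, which acts with C/EBP proteins at composite elements. WARS, the tryptophanyl enzyme, is known as an interferon-induced gene, most of all with interferon gamma.

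Because ATF4 sites are known in this family, a core of such an element, TGATGNAA on either strand, was searched for in RefSeq promoter windows (GRCh38.p14) reaching from 250 bases before to 50 after each annotated start. The motif was chosen after the expression values were known. Windows were held for 30 of the 36 genes, under the current symbols (AARS1 for AARS and so on). DARS, LARS, VARS, YARS, AARS2 and VARS2 had no window. Of 16 cytosolic genes with a window 7 had a match, as did 1 of 14 mitochondrial genes, against 4.46% of all 27305 genes with a window and 3.62% of the 35116 windows. The stretches of 30 bases around the matches are shown because these 7 cytosolic genes are among those whose RNA falls below, and they are written 5′ to 3′ on the gene's strand with the match in capitals.
AARS: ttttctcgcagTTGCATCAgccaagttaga
CARS: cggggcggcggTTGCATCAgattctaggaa
GARS: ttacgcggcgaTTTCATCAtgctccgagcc
IARS: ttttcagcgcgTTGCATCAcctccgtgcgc
MARS: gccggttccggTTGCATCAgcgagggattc
NARS: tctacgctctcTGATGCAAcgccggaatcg
TARS: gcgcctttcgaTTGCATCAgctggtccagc
YARS2: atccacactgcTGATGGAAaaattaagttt
The stretches lie at chr16:70289675-70289704 (- strand), chr11:3057407-3057436 (- strand), chr7:30594834-30594863 (+ strand), chr9:92293692-92293721 (- strand), chr12:57488053-57488082 (+ strand), chr18:57621804-57621833 (- strand), chr5:33440956-33440985 (+ strand) and chr12:32756076-32756105 (- strand), in the order shown. In CARS, IARS, MARS and TARS the match lies within 13 bases of the start site, and in AARS and YARS2 it lies 187 and 197 bases before it. The matches of AARS, CARS, IARS, MARS, NARS and TARS read the same 8 letters on one strand or the other, TTGCATCA or TGATGCAA. A match is a description of letters and not of binding.

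WARS had none of these. Upstream of its second annotated start a window held a match to the GAS core TTCNNNGAA at -142 and one to the interferon response core GAAANNGAA at -55 from the start. The window of its first start held neither. These cores were found in 7.66% and 8.11% of all windows and each in 3 of the 16 cytosolic genes with a window: the GAS core also in CARS and TARS, and the interferon response core also in GARS and IARS. Of 14 mitochondrial genes 2 had the GAS core (PARS2 and WARS2) and 1 the other (EARS2), against 9.38% and 9.86% of all genes with a window. The stretch is at chr14:100375384-100375499 (- strand), with both matches in capitals.
WARS: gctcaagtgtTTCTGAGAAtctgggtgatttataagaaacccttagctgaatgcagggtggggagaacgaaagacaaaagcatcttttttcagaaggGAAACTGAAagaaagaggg

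Total counts ran from 5331203 to 9822088 reads per library. Of 9 kidney-derived, neuron-like and epithelial genes listed for HEK293 cells 7 averaged at least 1 CPM (counts per the TMM-scaled library size). The 9 summed to 410.2 to 690.2 CPM. The 6 liver cell markers summed to at most 0.626 CPM, with ALB, TTR, SERPINA1 and CYP3A4 at 0. The 6 fibroblast markers summed to 8.35 to 20.6 CPM, and 1 of them averaged at least 1 CPM, while COL1A2, COL3A1 and LUM were at 0. Replicate 2 of untreated optimized cells had the fewest reads and stood apart (correlation of log CPM with its partner 0.958, against 0.976 to 0.982 within the other groups). Libraries also differed by transcript length. Spearman's rho across genes, between length and a gene's log CPM minus its mean over libraries, was -0.412 to -0.437 with IFNw in both genotypes and H11 in optimized cells, 0.376 to 0.406 with H11 and IFNL3 in wild-type cells, and 0.0615 to 0.161 in the untreated libraries and with IFNL3 in optimized cells. Its part in the results was not tested. Refits with a length offset took each gene's length from its basic or its principal transcripts, and the member calls they ended are given with each comparison, by name or in a count.

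In each of the 6 ligand comparisons at least 8 of the 20 cytosolic synthetase genes fell, and 6 of the genes fell in all. In bulk RNA a change in the cells present and a change in RNA per cell cannot be told apart. Genes are said to rise or fall where edgeR's quasi-likelihood test gave a Benjamini-Hochberg adjusted p under 0.05 over all 12704 genes tested. With IFNw in wild-type cells 13 of 20 cytosolic genes fell and 1 rose, against 14.8% of all genes lower and 16.6% higher. The median cytosolic log2 fold change was -0.90, beside -0.05 over all genes, and was -0.62 when replicate 2 of the untreated cells was left out. In optimized cells 11 fell and 2 rose with IFNw (all genes 15.9% and 17.5%, cytosolic median -0.85), and 11 fell and 2 rose with H11 (15.2% and 17.2%, median -0.71). Those medians were -0.59 and -0.44 without replicate 1 of untreated optimized cells. IFNL3 in optimized cells lowered 9 and raised 3 (6.05% and 7.26%, median -0.24), or 7 of all 35 members in place of 12 were called without either of its libraries. In wild-type cells H11 lowered 8 and raised 2 (20.6% and 18.2%, median -0.14), and IFNL3 lowered 8 and raised 3 (21.1% and 18.7%, median -0.24). The members called there, 13 and 14 of 35, were 8 with H11 when replicate 1 of the untreated cells was left out, and with IFNL3 were 9 and 8 without either untreated library and 9 without IFNL3 replicate 2. All 6 comparisons share untreated libraries within a genotype. The heat map of fold changes shows this by gene.

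**Figure D1:**
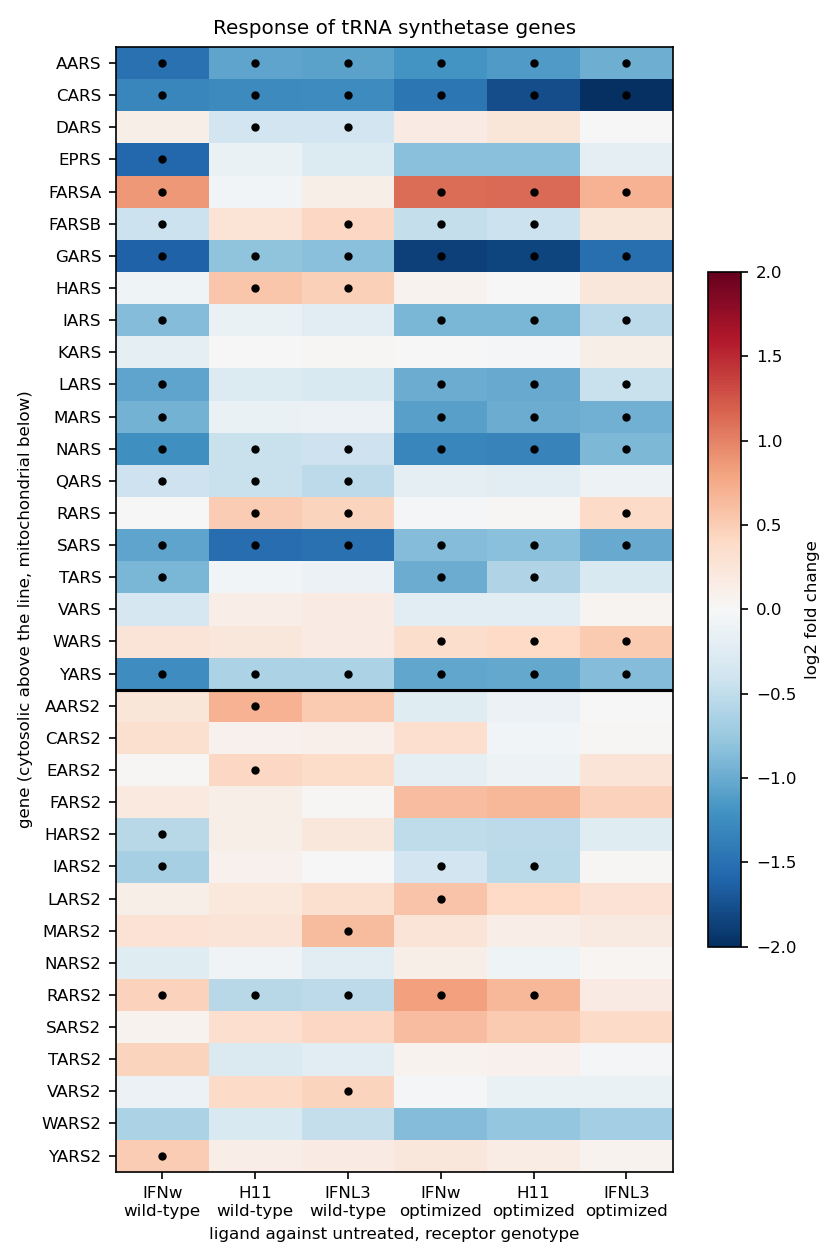
Log2 fold change of the 35 tested synthetase genes (rows) against untreated cells for 3 ligands in 2 receptor genotypes (columns), with colour running from -2 to 2 and a dot where the adjusted p is under 0.05. Dots are dense among the 20 cytosolic genes above the line, mostly on blue, and sparse among the mitochondrial genes below it.

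The same 6 genes, AARS, CARS, GARS, NARS, SARS and YARS, fell in all 6 ligand comparisons. Levels are CPM, given for replicates 1 and 2 in that order, and compare samples and not genes. AARS, the alanyl enzyme, was at 315 and 372 CPM in untreated wild-type cells, 120.4 and 125 with IFNw, 178 and 153 with H11 and 158 and 169.5 with IFNL3. The optimized cells had 342 and 301, then 142 and 139, 149 and 143 and 167 and 158 CPM. Every treated library lay below every untreated one, and the log2 changes ran from -1.49 ± 0.12 (± SE, 2 libraries a group, edgeR adjusted p = 1.2e-07) with IFNw in wild-type cells to -0.98 ± 0.12 with IFNL3 in optimized cells.

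GARS, the glycyl enzyme of both compartments, set the ligands apart in wild-type cells. Its untreated levels were 331 and 334 CPM, against 105 and 113 with IFNw, 182 and 199.8 with H11 and 182 and 189.6 with IFNL3. The untreated optimized libraries were at 310.4 and 368 CPM and the treated ones at 79.6 and 107 (IFNw), 82.9 and 108 (H11) and 124 and 114 (IFNL3). In wild-type cells the IFNw libraries were thus below those of both type III ligands, whereas in optimized cells IFNw and H11 overlapped. Its log2 change was -1.61 ± 0.15, -0.80 ± 0.15 and -0.84 ± 0.15 with IFNw, H11 and IFNL3 in wild-type cells, and -1.86 ± 0.15, -1.83 ± 0.15 and -1.51 ± 0.15 in optimized cells.

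SARS, the seryl enzyme, had the other order. It went from 264 and 238 CPM in untreated wild-type cells to 115 and 126 with IFNw, 81.2 and 93.1 with H11 and 92.1 and 85.4 with IFNL3. Optimized cells had 239 and 187 CPM untreated and 104 and 129, 116 and 125 and 114 and 96.9 with the 3 ligands. The type III ligands gave the lowest SARS levels in wild-type cells (-1.53 ± 0.15 and -1.50 ± 0.15 on the log2 scale, against -1.06 ± 0.15 with IFNw), and in optimized cells the IFNw libraries overlapped those of H11 and of IFNL3, while both H11 libraries lay above both IFNL3 libraries.

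CARS, the cysteinyl enzyme, had the fewest reads of the cytosolic genes (25 to 164 per library) and, with IFNL3 in optimized cells, the largest fall of any member with any ligand. It was at 14.6 and 16.3 CPM in untreated wild-type cells and between 5.74 and 7.03 CPM in the 6 treated ones. In optimized cells it was at 14.7 and 15.9 CPM untreated, 6.16 and 5.11 with IFNw, 5.26 and 3.55 with H11 and 3.56 and 4.13 with IFNL3. No treated library reached an untreated one. The log2 change was -1.99 ± 0.24 with IFNL3 in optimized cells (adjusted p = 2e-05) and -1.26 ± 0.22 in wild-type cells.

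NARS and YARS, the asparaginyl and tyrosyl enzymes, fell most with IFNw in wild-type cells and with IFNw and H11 in optimized cells. NARS was at 204 and 186 CPM in untreated wild-type cells, 83.1 and 83 with IFNw, 156 and 131 with H11 and 164 and 127 with IFNL3. Optimized cells had 216 and 176, then 82.4 and 76.4, 72.4 and 83.8 and 111 and 99.2 CPM. The smaller falls of both genes with type III ligands in wild-type cells (-0.44 and -0.42 for NARS, -0.63 and -0.63 for YARS) were not called without replicate 1 of the untreated cells (-0.37, -0.35, -0.57 and -0.58) or without replicate 2 of the treated group (-0.32, -0.25, -0.53 and -0.53). NARS with IFNL3 was also not called without replicate 2 of the untreated cells (-0.49), nor was YARS in optimized cells without IFNL3 replicate 2 (-0.55 in place of -0.87).

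**Figure D2:**
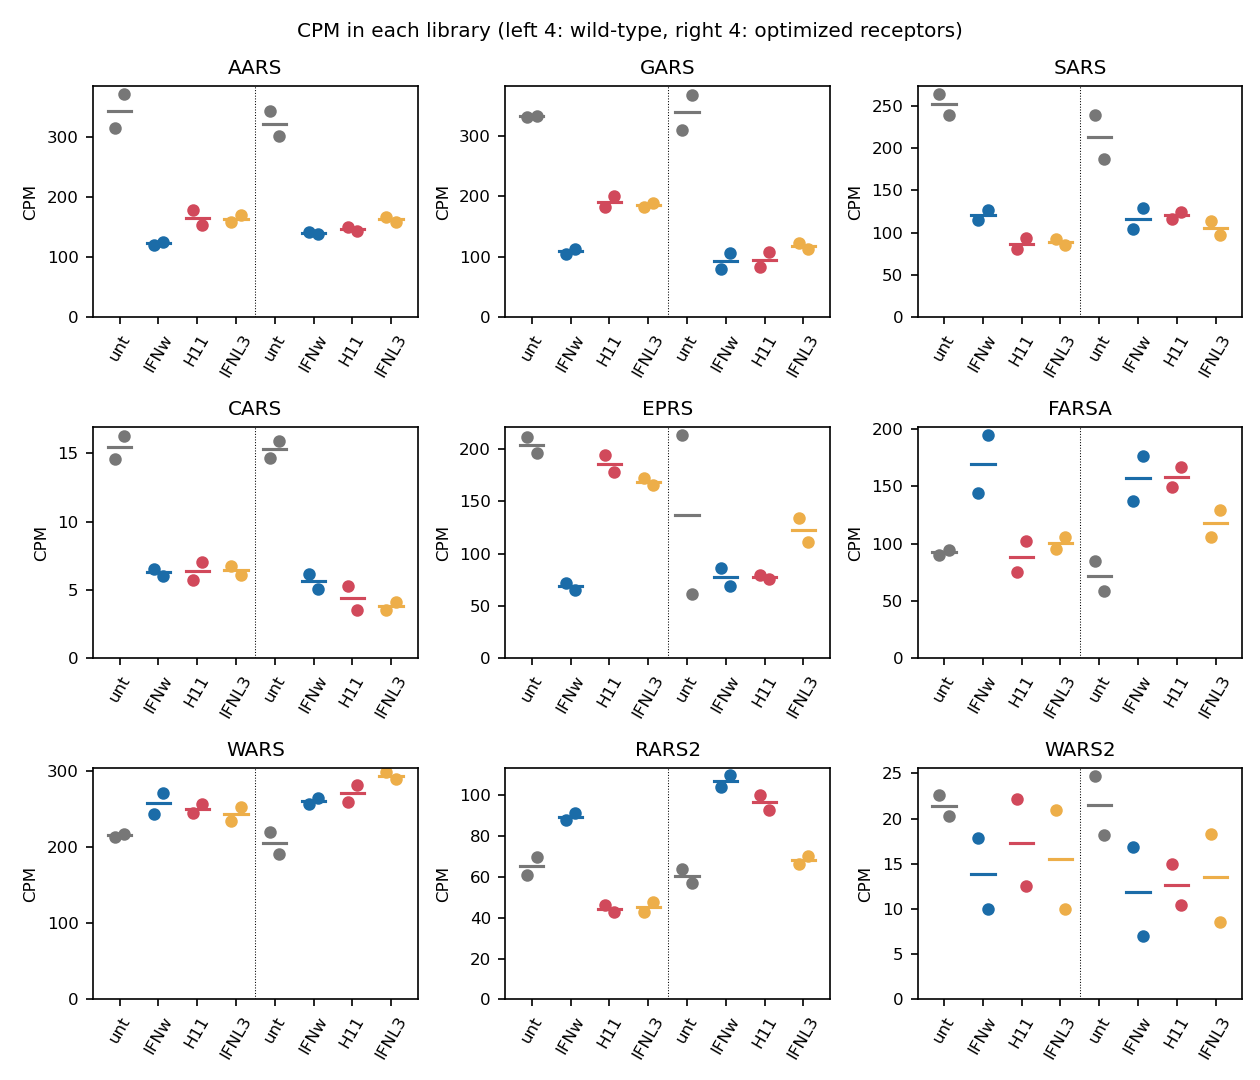
CPM in each library (dots, 2 per group) with group means (bars) for 9 members, wild-type receptors on the left and optimized on the right of each panel. Treated libraries lie below untreated ones for AARS, GARS, SARS and CARS and above them for WARS, and the untreated optimized libraries of EPRS differ widely.

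Among the 8 enzymes of the multisynthetase complex 5 fell with IFNw in wild-type cells and 3 in optimized cells, and H11 in optimized cells lowered 3 (all genes lower 14.8%, 15.9% and 15.2%). The 5 were 3 when untreated replicate 2 or IFNw replicate 1 of the wild-type cells was left out. No complex enzyme rose in those 3 comparisons. The other 12 cytosolic genes had 8 falls in each of the 3. EPRS was not among the falls of the complex in optimized cells, but without untreated replicate 2 it was at -1.46 with IFNw and with H11 there. LARS, the leucyl enzyme, went from 176 and 197 to 88.6 and 91.9 CPM with IFNw in wild-type cells and IARS, the isoleucyl enzyme, from 358 and 439.8 to 205 and 231 CPM, log2 changes of -1.05 ± 0.13 and -0.87 ± 0.14. MARS, the methionyl enzyme that also charges initiator tRNA, was at 255 and 425 CPM untreated and 171 and 184 with IFNw. The untreated replicates of MARS were far apart, and its change of -0.94 ± 0.22 was not called without replicate 2 of untreated cells (-0.53) or without IFNw replicate 1 (-0.83). The IFNw libraries lay below the untreated ones for these 3 genes.

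EPRS shows how much 1 library can carry. In wild-type cells it was at 211 and 197 CPM untreated, 72.4 and 65.4 with IFNw, 194 and 178 with H11 and 172 and 166 with IFNL3, and IFNw changed it by -1.57 ± 0.33 on the log2 scale. Untreated optimized cells were at 214 and 61.4 CPM, the second being the library that stood apart, and the treated ones at 85.9 and 69.5 (IFNw), 79.9 and 75.9 (H11) and 134 and 111 (IFNL3). With both untreated libraries none of these was called (-0.84, -0.83 and -0.18), and without replicate 2 all were, at -1.46, -1.46 and -0.80. A fit that also included the replicate number (a replicate block) called the changes with IFNw and H11. Without replicate 1 instead, IFNL3 was at 1.00 and called in the other direction.

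Of the complex's 3 scaffold genes, EEF1E1 and AIMP1 rose in comparisons where several of its enzymes fell. EEF1E1 rose by 1.68 ± 0.14 with IFNw in wild-type cells and by 2.16 ± 0.14, 2.12 ± 0.14 and 1.25 ± 0.13 with IFNw, H11 and IFNL3 in optimized cells. AIMP1 rose by 0.64 ± 0.11 with IFNw in wild-type cells and by 0.68 ± 0.12 and 0.82 ± 0.12 with IFNw and H11 in optimized cells. It fell with H11 (-0.34 ± 0.11) and IFNL3 (-0.32 ± 0.11) in wild-type cells, but neither fall was called when any 1 library of its comparison was left out (-0.30 to -0.38 and -0.28 to -0.36). The treated libraries of the AIMP1 rises had a rho with transcript length of -0.412 to -0.437, and those of its falls 0.376 to 0.406. The part of length in the scaffold changes was not tested. AIMP2 was called in none of the 6.

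Other cytosolic members departed from these falls. FARSA, the catalytic subunit of the phenylalanyl enzyme, was at 90.2 and 94.7 CPM in untreated wild-type cells and 144 and 195 with IFNw, and in optimized cells at 85.2 and 58.5 untreated, 137 and 176 with IFNw, 149.9 and 167 with H11 and 106 and 129 with IFNL3. It rose by 0.87 ± 0.20, 1.12 ± 0.20, 1.13 ± 0.20 and 0.70 ± 0.20 in those 4, the last not called without replicate 2 of untreated optimized cells (0.47) or IFNL3 replicate 2 (0.55). With H11 and IFNL3 in wild-type cells it was at -0.06 and 0.12. FARSB, the partner subunit of the same enzyme, went the other way, from 40.7 and 41.4 to 29.1 and 31.9 CPM with IFNw in wild-type cells. It fell with IFNw in both genotypes (-0.43 and -0.47) and with H11 in optimized cells (-0.43) and rose with IFNL3 in wild-type cells (0.41), but each FARSB call was lost when at least 1 library was left out (values from -0.31 to -0.47, and 0.39 to 0.42). A length offset ended the fall with IFNw in wild-type cells (-0.28 by basic and -0.35 by principal transcripts) and, by basic transcripts, those with IFNw and H11 in optimized cells (-0.38 and -0.33).

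HARS and RARS, the histidyl and arginyl enzymes, rose with H11 in wild-type cells (0.56 ± 0.14 and 0.51 ± 0.12), from 47 and 44.4 to 64.4 and 69.9 CPM and from 95.8 and 92 to 133 and 135 CPM, and their treated and untreated libraries did not overlap. The values with IFNL3 there were 0.47 and 0.44 and were called, but both calls were lost without replicate 2 of untreated cells (0.42 and 0.41), that of HARS also without IFNL3 replicate 2 (0.37) and that of RARS without IFNL3 replicate 1 (0.36). RARS was called with IFNL3 in optimized cells as well (0.39), but not when any 1 of the 4 libraries was left out (0.29 to 0.50) or with a length offset (0.29). DARS and QARS, the aspartyl and glutaminyl enzymes, fell in wild-type cells with H11 and with IFNL3 (DARS -0.38 and -0.38, QARS -0.45 and -0.52), and QARS also with IFNw there (-0.41), a call lost without replicate 2 of untreated cells (-0.39) or either IFNw library (-0.34 and -0.40). The DARS calls were lost without replicate 1 of untreated cells (-0.34 and -0.35) or of the treated group (-0.35 and -0.35). KARS, the lysyl enzyme, and VARS, the valyl enzyme, were called with no ligand, and KARS kept between 43.3 and 57.1 CPM in all libraries. VARS in optimized cells depended on the untreated libraries. Without replicate 2 it was at -0.49 with IFNw and -0.50 with H11 (in place of -0.21 and -0.23). Without replicate 1 it was at 0.42 with IFNL3 (in place of 0.06).

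WARS was the only cytosolic synthetase above 0 in all 6 ligand comparisons. It was at 213 and 217 CPM in untreated wild-type cells, 243 and 271 with IFNw, 244 and 256 with H11 and 234 and 252 with IFNL3. In optimized cells it was at 219 and 190.1 CPM untreated, 257 and 264 with IFNw, 259 and 281 with H11 and 298 and 289 with IFNL3. Treated and untreated libraries of a genotype did not overlap with any ligand, and IFNL3 in optimized cells gave the highest levels. WARS rose in optimized cells by 0.35 ± 0.11, 0.40 ± 0.11 and 0.52 ± 0.11 (edgeR adjusted p = 0.027, 0.012 and 0.0062) with IFNw, H11 and IFNL3. In wild-type cells it was at 0.26 ± 0.11, 0.22 ± 0.11 and 0.17 ± 0.11 (adjusted p = 0.096, 0.14 and 0.24), which did not pass.

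The size of the WARS change was small, and its calls were not firm. The rise with IFNw was not called without replicate 2 of untreated optimized cells (0.25) or of IFNw (0.36), that with H11 without the same untreated library (0.30) or H11 replicate 2 (0.37), and that with IFNL3 without IFNL3 replicate 1 (0.51). When only the groups compared were fitted, none of the 3 was called (0.36, 0.43 and 0.51). The genotypes' WARS responses differed by 0.09 with IFNw (95% interval -0.25 to 0.43), 0.18 with H11 (-0.16 to 0.52) and 0.34 with IFNL3 (0.01 to 0.68, adjusted p = 0.15). Without replicate 1 of untreated optimized cells the IFNL3 difference was 0.45 and was called, and without replicate 2 the IFNw difference was -0.01.

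Set against the other 19 cytosolic genes, WARS stood higher in all treated libraries than in all untreated ones. This is a relative position, to which falls of the 19 contribute as well as rises of WARS. For each gene the log2 CPM minus its mean over the 16 libraries was taken, and the median of the 19 was subtracted from WARS. This difference was -0.51 and -0.73 in untreated wild-type libraries and -0.56 and -0.48 in untreated optimized ones. It was 0.41 and 0.43 with IFNw in wild-type cells, 0.36 and 0.48 with IFNw and 0.37 and 0.51 with H11 in optimized cells, and 0.26 and 0.22 with IFNL3 there. With H11 and IFNL3 in wild-type cells it was -0.25 and -0.09, and -0.14 and -0.18. Thus the untreated libraries were lowest, the wild-type libraries with type III ligands in between and the rest highest, with no overlap of these sets, which were formed after the values were seen. On this scale WARS itself ran from -0.38 to 0.27 over the libraries and the median of the other 19 from -0.43 to 0.54, as the plot of WARS beside the 2 medians shows.

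**Figure D3:**
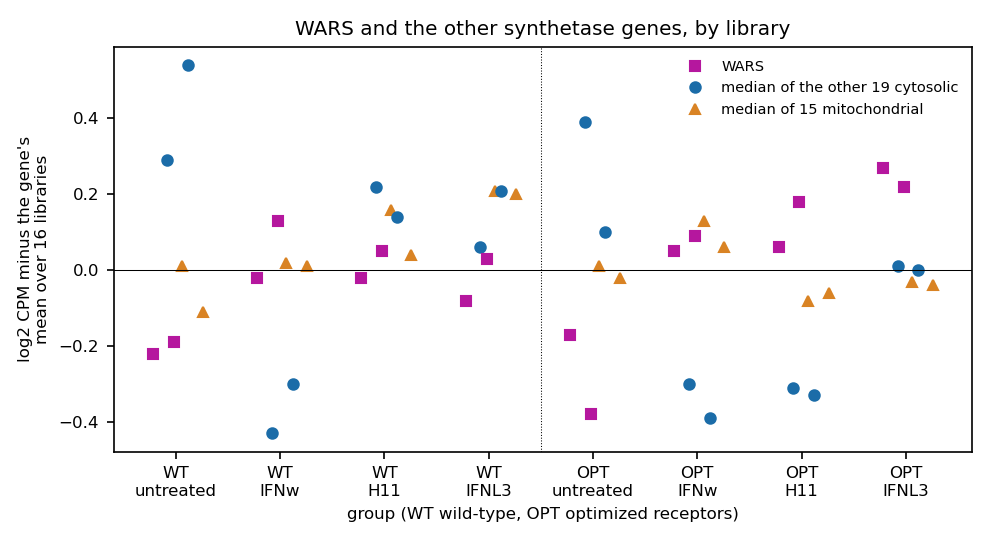
Log2 CPM minus the gene's mean over 16 libraries, in each library of the 8 groups, for WARS (squares) and as the median of the other 19 cytosolic genes (circles) and of 15 mitochondrial genes (triangles). WARS lies below the cytosolic median in the untreated libraries and above it in both IFNw groups, and the mitochondrial median stays near 0.

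WARS2, the mitochondrial tryptophanyl enzyme, did not share the WARS pattern. It was at 22.6 and 20.3 CPM in untreated wild-type cells and 17.8 and 9.98 with IFNw, 22.2 and 12.5 with H11 and 20.9 and 10 with IFNL3. In optimized cells it was at 24.7 and 18.2 untreated and 16.9 and 6.98, 15 and 10.4 and 18.3 and 8.59 with the ligands. In every group replicate 2 was lower than replicate 1. All 6 log2 changes lay below 0, from -0.87 ± 0.44 to -0.31 ± 0.41. None was called by edgeR in the main fit (adjusted p from 0.14 to 0.57), though without IFNw replicate 1 the change in optimized cells was -1.59 and was called. With a replicate block WARS2 was called with IFNw and IFNL3 in wild-type cells and with all 3 ligands in optimized cells. With no filter on low counts WARS2 was called with IFNw in wild-type cells and with all 3 ligands in optimized cells (-0.62, -0.87, -0.77 and -0.67), and without H11 replicate 2 the change in wild-type cells was 0.05.

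Mitochondrial synthetase genes had 0 to 4 calls a comparison, in both directions. Of 15 tested in wild-type cells, IFNw raised 2 and lowered 2 (all genes 16.6% and 14.8%), H11 raised 2 and lowered 1 (18.2% and 20.6%), and so did IFNL3 (18.7% and 21.1%). In optimized cells IFNw raised 2 and lowered 1 (17.5% and 15.9%), H11 raised 1 and lowered 1 (17.2% and 15.2%), and IFNL3 called 0 (7.26% and 6.05%). A count of 1 or 2 of 15 is close to, or below, these shares. With IFNL3 in optimized cells 12 of the 35 members had an unadjusted p under 0.05 by edgeR, and all 12 were the cytosolic genes called. DESeq2 called 12 members there. Median log2 changes were 0.12, 0.12 and 0.16 in wild-type and 0.12, -0.05 and 0.04 in optimized cells, beside -0.05 to -0.01 over all genes. The median with H11 in optimized cells lay between 0.00 and 0.14 when a library was left out. The untested PARS2 was at 0 to 0.7 CPM.

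RARS2, the mitochondrial arginyl enzyme, was called in 5 of the 6 ligand comparisons. It was at 60.7 and 69.8 CPM in untreated wild-type cells, 87.9 and 91.3 with IFNw, 46.4 and 42.7 with H11 and 42.6 and 47.8 with IFNL3. In optimized cells it was at 64 and 57.2 CPM untreated, 104 and 110 with IFNw, 100.1 and 92.9 with H11 and 66.5 and 70 with IFNL3. H11 thus lowered it in wild-type cells and raised it in optimized cells, with no library overlapping its untreated group. The log2 changes with IFNw, H11 and IFNL3 were 0.46 ± 0.13, -0.55 ± 0.13 and -0.53 ± 0.13 in wild-type cells and 0.82 ± 0.13, 0.67 ± 0.13 and 0.17 ± 0.13 in optimized cells, of which the last did not pass. The IFNw change in wild-type cells was not called without replicate 1 of untreated cells (0.36) or with a length offset.

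IARS2, the mitochondrial isoleucyl enzyme, fell with IFNw in both genotypes (-0.66 ± 0.13 and -0.39 ± 0.13) and with H11 in optimized cells (-0.54 ± 0.13). It went from 110.3 and 116 to 71.2 and 72 CPM with IFNw in wild-type cells and from 108 and 104 to 81.4 and 80 and 70.8 and 74.2 CPM with IFNw and H11 in optimized cells. In optimized cells the IFNw call was lost without replicate 1 of untreated cells (-0.36) or either IFNw library (-0.35 and -0.34) or with a length offset (-0.27 by basic and -0.35 by principal transcripts), and the H11 call without H11 replicate 1 (-0.47). HARS2, the histidyl enzyme, fell with IFNw in wild-type cells (-0.55 ± 0.20), a call lost without any 1 of the 4 libraries (-0.44 to -0.60) or with a length offset by basic transcripts (-0.56). HARS and HARS2 are head-to-head neighbours on chromosome 5, with start sites 85 bases apart in RefSeq (GRCh38.p14), and HARS was at -0.08 in that comparison.

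The other mitochondrial calls were single rises. YARS2, the tyrosyl enzyme, rose with IFNw in wild-type cells (0.50 ± 0.14, but not called without replicate 2 of untreated cells, at 0.41, or with a length offset by principal transcripts, at 0.38), and LARS2, the leucyl enzyme, with IFNw in optimized cells (0.57 ± 0.16, or 0.38 and not called without replicate 2 of untreated cells). AARS2 and EARS2, the alanyl and glutamyl enzymes, rose with H11 in wild-type cells (0.70 ± 0.22 and 0.41 ± 0.15), and MARS2 and VARS2, the methionyl and valyl enzymes, with IFNL3 there (0.63 ± 0.18 and 0.44 ± 0.16). Each of those 4 calls was lost without either untreated library or without a treated one, apart from VARS2 without untreated replicate 1 (AARS2 0.45 to 0.72, EARS2 0.37 to 0.46, MARS2 0.41 to 0.64, VARS2 0.32 to 0.52). A length offset also ended those of EARS2 (0.40 and 0.38 by basic and principal transcripts) and VARS2 (0.37 and 0.39).

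**Figure D4:**
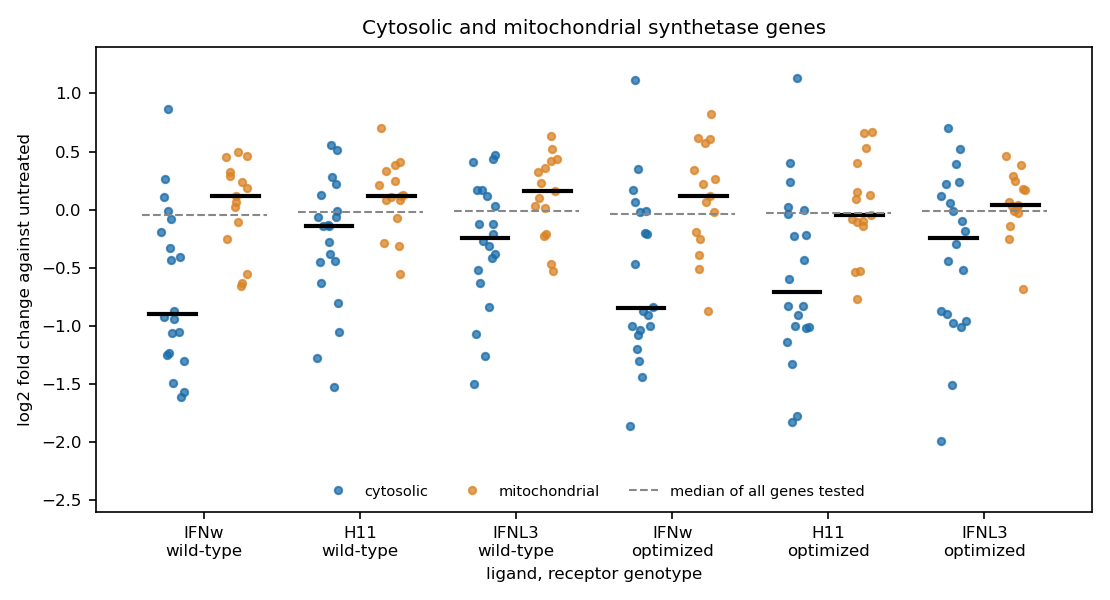
Log2 fold change against untreated cells of each cytosolic (blue) and mitochondrial (orange) synthetase gene for 3 ligands in 2 genotypes, with black bars at each set's median and a dashed line at the median of all genes tested. The cytosolic medians lie between -0.90 and -0.14 and the mitochondrial ones between -0.05 and 0.16.

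The distance between the compartments was also seen library by library. The median of the 19 cytosolic genes without WARS minus the median of the 15 mitochondrial genes, both on the scale of log2 CPM minus the gene's mean, was 0.28 and 0.65 in untreated wild-type and 0.38 and 0.11 in untreated optimized libraries. It was -0.45 and -0.31 with IFNw in wild-type cells, and -0.43 and -0.45 with IFNw and -0.23 and -0.27 with H11 in optimized cells. With H11 in wild-type cells it was 0.06 and 0.10, and with IFNL3 -0.15 and 0.01 in wild-type and 0.03 and 0.04 in optimized cells. All 4 untreated libraries were above all 12 treated ones, but narrowly. The lowest untreated value was 0.11, in optimized replicate 2, the library that stood apart. The highest treated value was 0.10, in wild-type H11 replicate 2.

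The genotypes were compared next, to ask what the optimized receptors change. In untreated cells and with IFNw edgeR called no member (0 of 35, all genes 0% and 0%), 1 and 0 of them passing 0.05 before adjustment (unadjusted p), and DESeq2 called 0 in both. The 95% interval lay within a 2-fold change either way for 32 and 34 of the 35. Without replicate 1 of untreated optimized cells, which leaves the library that stood apart, 5 members were called: EPRS, VARS, FARS2, LARS2 and SARS2 (-1.73, -0.52, -2.13, -0.64 and -1.45).

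With H11 the genotypes differed in 18 of 35 members, 4 higher and 14 lower in optimized cells, against 25.6% and 26.1% of all genes. Taken in either direction, that share is near the background. Cytosolic genes made up 11 of the lower ones, among them EPRS (-1.26 ± 0.33) and GARS (-1.0 ± 0.15), the 2 cytosolic genes with the largest change. RARS2 was higher (1.12 ± 0.13) and IARS2 lower (-0.72 ± 0.13). With a length offset EPRS was at -0.80 and RARS2 at 0.88, both still called. The 18 were 15 with the offset by basic and 13 by principal transcripts, and IARS, SARS, VARS and VARS2 were lost under both. With IFNL3 7 members differed, 2 higher and 5 lower (18.1% and 15.1% of all genes), with GARS at -0.65 ± 0.15, CARS at -0.75 ± 0.25, RARS2 at 0.59 ± 0.13 and VARS2 at -0.53 ± 0.16. The 7 were 3 without wild-type IFNL3 replicate 1 and 4 without either optimized IFNL3 library, and the CARS call was lost with any 1 of the 4 libraries left out (-0.65 to -0.85) and that of VARS2 without replicate 1 of either genotype (-0.43 and -0.41). The LARS2 call was lost with either length offset, and that of VARS2 by basic transcripts.

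Testing the responses themselves, 13 members responded differently to H11 in the genotypes (all genes 36.9%) and 2 did to IFNL3 (18.4%). None did to IFNw by edgeR (0%), where 0 passed 0.05 by unadjusted p and the DESeq2 count was 0, but EPRS, FARS2 and SARS2 were called there without replicate 1 of untreated optimized cells (1.90, 1.99 and 1.53). The log2 difference in H11 response, optimized minus wild-type, was -1.03 ± 0.21 for GARS and 1.22 ± 0.18 for RARS2 (adjusted p = 5.5e-05). FARSA, DARS and SARS also had a higher value in optimized cells (1.19, 0.62 and 0.70), and FARSB, HARS, IARS, LARS, MARS, NARS, RARS and IARS2 a lower one. The calls of SARS, IARS and IARS2 were lost with a length offset (0.45, -0.46 and -0.45; by principal transcripts those of SARS, IARS and LARS), and RARS moved from -0.49 to -1.14. Leaving out 1 library ended the calls of HARS (7 of 8 libraries, -0.37 to -0.61), RARS (6 of 8, -0.44 to -0.52), MARS (5 of 8, -0.54 to -0.90), SARS (replicate 1 of untreated or H11-treated wild-type cells, 0.63 and 0.61) and IARS2 (optimized H11 replicate 1, -0.57). The IFNL3 difference was -0.67 ± 0.21 for GARS and 0.70 ± 0.18 for RARS2. GARS was called only without replicate 1 of untreated optimized cells when 1 library was left out (lost values -0.55 to -0.74), and RARS2 was lost without wild-type IFNL3 replicate 1 (0.62), replicate 2 of untreated wild-type cells (0.59) or with a length offset (0.53). Left-out libraries took the count from 2 to 0 (wild-type IFNL3 replicate 1), to 10 (untreated optimized replicate 1) or to 1 (both untreated wild-type libraries, wild-type IFNL3 replicate 2 and both optimized IFNL3 libraries).

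**Figure D5:**
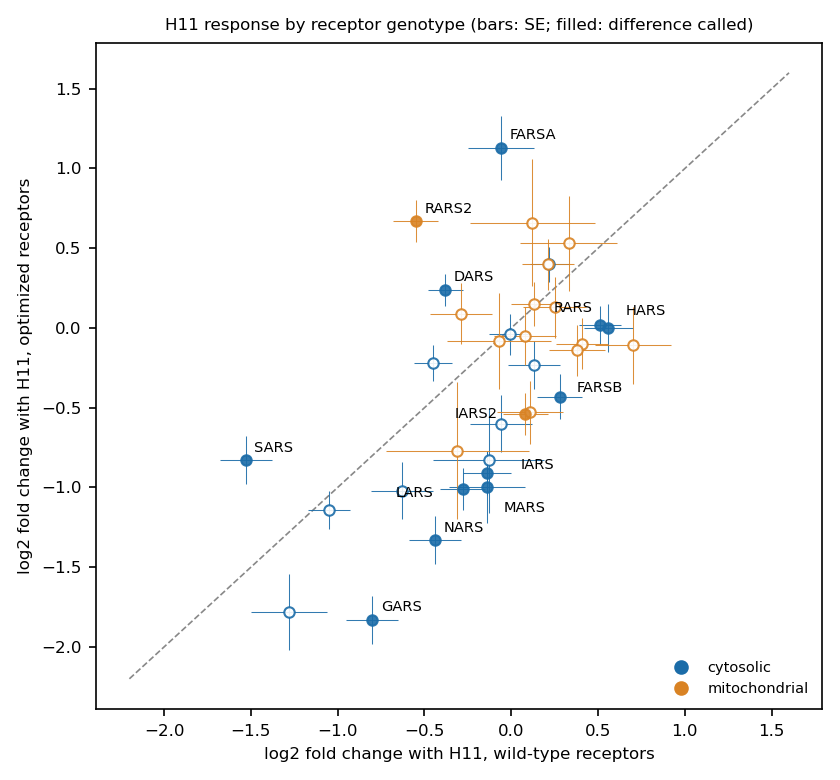
Log2 fold change with H11 against untreated cells in wild-type (x axis) and optimized cells (y axis) for 35 synthetase genes, with bars of 1 SE and filled, named points where the difference passed the test. Most filled cytosolic points lie below the dashed line of equal response, and FARSA, RARS2, DARS and SARS lie above it.

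The ligands were also set against each other at their common dose. In wild-type cells H11 and IFNL3 did not separate for any member by edgeR (0 of 35, all genes 0%), 0 passed 0.05 by unadjusted p and DESeq2 called 0, and 34 of the 35 intervals lay within 2-fold. In optimized cells 5 members differed between them (all genes 17.6%): FARSB (-0.67), LARS (-0.57), RARS (-0.38) and IARS2 (-0.57) were lower and RARS2 (0.50) higher with H11. The count was 1, 2, 3 and 2 without H11 replicate 1, IFNL3 replicate 1, H11 replicate 2 and IFNL3 replicate 2, and RARS2 was lost with either length offset and LARS by principal transcripts. IFNw against IFNL3 in wild-type cells gave 22 calls, 6 higher and 16 lower with IFNw (25.9% and 27.2% of all genes), and cytosolic genes made up 13 of the lower ones. With a length offset the 22 were 18 by basic and 17 by principal transcripts, and IARS, SARS, VARS, VARS2 and YARS2 were lost under both. The same contrast in optimized cells gave 6 (all genes 19.1%), RARS2 higher (0.65) and FARSB, LARS, RARS, TARS and IARS2 lower, or 3 and 2 without IFNw replicate 1 and 2. IARS2 was lost there with either length offset and LARS by principal transcripts.

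Genes around the synthetases were read from lists. Of 34 amino-acid response genes regulated through ATF4, 28, 29 and 28 fell with IFNw, H11 and IFNL3 in wild-type cells and 29, 29 and 30 in optimized cells, and 0 rose. Among all genes 14.8%, 20.6% and 21.1% fell in wild-type cells and 15.9%, 15.2% and 6.05% in optimized cells. The list's median log2 changes ran from -1.17 to -1.40, against -0.90 to -0.14 for the cytosolic synthetases. INHBE, an inhibin chain, was at -6.08 ± 0.48 and CHAC1, which degrades glutathione, at -4.10 ± 0.21 with IFNw in wild-type cells. TGATGNAA was found for 8 of the 25 list genes with a promoter window, against 4.46% of all genes with a window. Among the 16 cytosolic synthetase genes with a window, the 7 with a match all fell with IFNw in wild-type cells, as did 4 of the 9 without. That split is of 1 comparison. Of the 7, AARS, CARS, GARS and NARS fell in all 6 ligand comparisons and IARS, MARS and TARS did not. Of the 9, SARS fell in all 6. YARS and LARS, which also fell with IFNw in wild-type cells, had no window and are outside the split, and YARS fell in all 6. The motif was chosen after the values were known, and its part in the falls was not tested. Of the 4 kinases that phosphorylate eIF2alpha, EIF2AK2 (PKR) rose with each ligand, by 1.96 ± 0.14 with IFNw in wild-type cells, and EIF2AK4 (GCN2), the sensor of uncharged tRNA, fell there (-0.55 ± 0.15), a call lost without replicate 1 of untreated (-0.48) or IFNw-treated cells (-0.30) or with a length offset (-0.38).

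Mitochondrial ribosomal protein genes gave another picture than the mitochondrial synthetases. Of 29 mitochondrial ribosomal protein genes tested 20 rose and 1 fell with IFNw in each genotype, 22 rose and 1 fell with H11 in optimized cells, and 11 rose with IFNL3 there. Among all genes 16.6% and 17.5% rose with IFNw in wild-type and optimized cells, and 17.2% and 7.26% with H11 and IFNL3 in optimized cells. In wild-type cells 10 and 12 fell with H11 and IFNL3 (all genes 20.6% and 21.1%) and 0 rose (2 in each with a length offset). The falls were 5 with H11 without replicate 1 of untreated cells and 7 with IFNL3 without its replicate 2. The rises with H11 and IFNL3 in optimized cells numbered 14 and 5 with a length offset by principal transcripts, and for IFNL3 were 2 and 5 without its replicates 1 and 2 and 5 without replicate 2 of untreated cells. Of 8 mitochondrial translation factors 2 rose and 1 fell with IFNw in each genotype, which is close to the shares of all genes. Those shares were 16.6% higher and 14.8% lower in wild-type cells and 17.5% and 15.9% in optimized cells. TSFM was at 0.80 ± 0.17 and MTIF2 at -0.59 ± 0.13 in wild-type cells, but with a length offset 0 of the factors rose in either genotype. With H11 in wild-type cells 1 factor rose and 3 fell (all genes 18.2% and 20.6%, factor median -0.52). With IFNL3 there 1 rose and 4 fell (18.7% and 21.1%, median -0.57). In optimized cells 2 rose and 1 fell with H11 (17.2% and 15.2%), and 0 rose and 1 fell with IFNL3 (7.26% and 6.05%). Of 5 cytosolic elongation factors IFNw raised 2 and lowered 2 in wild-type cells, 4 fell with each of H11 and IFNL3 there, and in optimized cells 2 rose and 1 fell with IFNw, 2 rose and 2 fell with H11 and 2 fell with IFNL3. With H11 and IFNL3 in optimized cells 15.2% and 6.05% of all genes fell, and the other shares are given above. EEF2, which moves the ribosome along, fell in all 6, for example with H11 in wild-type cells (-0.72 ± 0.12). The rises were of EEF1D and EEF1B2, subunits of the exchange factor of EEF1A, by 0.84 ± 0.21 and 0.71 ± 0.11 with IFNw in wild-type cells and by 1.26 and 0.64 with IFNw and 1.20 and 0.58 with H11 in optimized cells. The EEF1B2 rises were not called with a length offset (0.08 to 0.27), nor that of EEF1D in wild-type cells without replicate 1 of untreated cells (0.78). Of 13 partner genes tested, XPOT, the tRNA exporter, fell with IFNw (-1.31 ± 0.12 in wild-type cells) and TRMU, a mitochondrial tRNA modifier, rose in all 6 (0.72 ± 0.18 there, not called at 0.64 without replicate 1 of untreated cells). Its rise with IFNL3 in optimized cells (0.64 ± 0.19) was not called without either IFNL3 library (0.53 and 0.75) or without replicate 2 of untreated cells (0.54).

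The 8 genes whose group means over the 8 groups were most like WARS, of those with at least 10 CPM on average, were GLOD4, RIOK2, LSM12, NETO2, HN1L, NUDCD3, MOBP and OSR1, with Pearson's r on log2 CPM from 0.957 to 0.994. They are the highest of 8450 genes compared over only 8 group means. Whether they share regulation with WARS was not tested.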

How the data were processed

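RNA was measured in 16 libraries of HEK293 cells, 2 in each of 8 groups. The deposited values are raw read counts per gene target, aligned to hg19 per the submitters' processing notes. Each of the 36 members had 1 target, while 4 of the 20802 gene targets carried a repeated symbol. No aligner or counter is named in the labels. Targets can differ in yield, so levels are not compared between genes, and intervals cover only the spread between these libraries.

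Counts were tested with edgeR 4.0.16 (R 4.3.3): TMM, filterByExpr, 1 coefficient per group, all libraries in 1 quasi-likelihood fit, Benjamini-Hochberg adjustment over 12704 genes. The script was tested on simulated data. Alternatives were DESeq2 1.42.0, its size factors, no low-count filter, a replicate block, only the groups compared, each library left out (the remaining single library then takes its spread from the other groups) and an offset for transcript length by basic transcripts. An offset by principal transcripts was added after the data were seen. The members, gene lists and naming rule (the 3 called genes of each compartment with the largest change per ligand comparison, 2 for genotype comparisons, and WARS and WARS2 throughout) were chosen with earlier results of these data known, and other genes were named after their values were seen. Results for 1 list of reference genes and 1 list of cell markers are not reported here.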

Additional observations from a re-analysis of the deposited data

Results flagged for a closer look

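The response to H11 differed between optimized and wild-type cells for 13 of 35 members by the test of the difference itself (edgeR, adjusted over all genes), against 36.9% of all genes, so the members' share is near the background. The log2 difference, optimized minus wild-type, was above 0 for RARS2 (1.22), FARSA (1.19), SARS (0.70) and DARS (0.62). It was below 0 for GARS (-1.03), NARS (-0.89), MARS (-0.86), IARS (-0.76), LARS (-0.73), FARSB (-0.70), IARS2 (-0.62), HARS (-0.56) and RARS (-0.49). The response to IFNL3 differed for GARS (-0.67) and RARS2 (0.70), 2 of 35 against 18.4% of all genes, a share below the background. The H11 libraries of the genotypes also had opposite length trends (rho 0.406 and 0.376 in wild-type, -0.412 and -0.42 in optimized cells), and the part of these in the differences was not tested.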

How the results depend on the processing

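Of 169 further member values 1915 of 1919 alternatives kept the direction, 275 lost the call, and the exceptions, with 1 library left out, were EPRS in optimized cells without untreated replicate 1 (0.34 with IFNw, 0.34 with H11 and 1.00 with IFNL3) and WARS2 in wild-type cells without H11 replicate 2 (0.05). The cause of the changes was not tested. With only the groups compared in the fit, members called were 4 with IFNL3 in optimized cells, 13 between genotypes with IFNL3, 10 for H11 and 11 for IFNw against IFNL3 in optimized cells, and 1 for the IFNL3 difference, and the WARS rises in optimized cells (0.36, 0.43 and 0.51) were not called. Without a low-count filter 8 were called for H11 against IFNL3 in optimized cells and 4 for the IFNL3 difference, and the WARS rise with IFNw (0.35) was not called. Same-numbered replicates had deviations correlated by 0.0829 to 0.203 (over 0.1 in 27 of 28 pairs of groups). The main fit took no replicate block, so it leaves out any effect that libraries of 1 replicate number share. A replicate block called 12 between genotypes with IFNL3, 10 for IFNw against IFNL3 in optimized cells and 4 for the IFNL3 difference, and also WARS2 in 5 of 6 ligand comparisons (-0.69 with IFNw and -0.56 with IFNL3 in wild-type cells, -0.90, -0.76 and -0.71 with IFNw, H11 and IFNL3 in optimized cells) and EPRS with IFNw and H11 in optimized cells (-0.77 and -0.76). With the principal-transcript length offset 3 were called for H11 against IFNL3 in optimized cells and 1 for the IFNL3 difference, and mitochondrial medians were 0.25 (wild-type IFNL3) and, in optimized cells, 0.05 (IFNw), -0.02 (H11) and 0.01 (IFNL3). The H11 median there was 0.01 with the basic length offset, -0.02 with DESeq2, -0.02 with its size factors and -0.01 with only the groups compared.

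With 1 library left out, members called ranged from 8 to 11 (H11) and 8 to 10 (IFNL3) in wild-type cells, 7 to 16 (IFNL3 in optimized cells), 0 to 5 and 3 to 5 (genotypes, untreated and IFNL3), 1 to 3 and 2 to 4 (H11 and IFNw against IFNL3, optimized cells) and 0 to 3 and 0 to 10 (IFNw and IFNL3 differences). Cytosolic medians ranged from -1.0 to -0.62 (IFNw, wild-type), -0.76 to -0.59 (IFNw, optimized) and -0.71 to -0.44 (H11, optimized). Mitochondrial medians ranged from 0.07 to 0.21 (IFNw) and 0.07 to 0.25 (IFNL3) in wild-type cells and from 0.04 to 0.26, 0.00 to 0.14 and -0.05 to 0.15 (IFNw, H11 and IFNL3) in optimized cells. WARS ranged from 0.25 to 0.45, 0.30 to 0.51 and 0.42 to 0.63 with IFNw, H11 and IFNL3 in optimized cells, from -0.01 to 0.20 for the IFNw difference and from 0.24 to 0.45 for the IFNL3 difference. EPRS in optimized cells ranged from -1.46 to 0.34 with IFNw and with H11 and from -0.80 to 1.00 with IFNL3, and WARS2 with H11 in wild-type cells from -0.78 to 0.05. PARS2, with 37 reads, was too shallow to test.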
